A study of Mus musculus with 30 samples.

Results

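Tumours of the clone 14559TN that had received RAFi/MEKi were compared with tumours of the clone 13TN that had received the same agents. The comparison rests on the 3 libraries titled 314C_TN_DT and the 3 libraries titled Depleted1_DT, 6 of the 30 libraries of the series. The series grew 5 clones of YUMM1.7, a mouse melanoma line, as subcutaneous tumours, untreated or treated, with 3 tumours in each of the 10 groups. Its strain is given as C57BL/6, and the line is known for an activated Braf allele together with loss of tumour suppressors, which both clones would share. CaTCH, the method used to isolate the clones, marks cells with barcodes so that a chosen clone can be pulled out of a mixed population. RAFi/MEKi stands for inhibitors of the kinases RAF and MEK, and the drug names, doses and times are not given in the sources used here. TN and R are used as names only, and the word Depleted in the titles belongs to 13TN. After dissociation with collagenase, live cells were stained for CD45 and the injected cells were recognised by their GFP signal. Each group is 1 clone, so the p-values below rest on how tumours within a group vary, estimated over all 10 groups together. They say nothing of how other clones would vary. The 3 untreated tumours of each of the same clones are given beside the treated values wherever they bear on them.

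RAF and MEK are successive kinases of the pathway that ends in ERK, which drives the division of most melanoma cells. ERK switches on its own brakes, among them the Sprouty proteins and the dual-specificity phosphatases (Dusp), and these genes are commonly read as its output. Melanoma cells that live through RAF and MEK inhibition are known to occur in states poor in pigment genes and rich in genes of connective tissue, receptor tyrosine kinases and secreted growth factors.

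The 6 libraries held 3349738 to 4620473 counts each, made with a 3′ tag kit, so a count stands for a read near the end of a transcript. Libraries of a group differed by more than counting error, with a chi-square per degree of freedom of 4.96 to 8.72 within treated 14559TN and 6.6 to 11.6 within treated 13TN. The first principal component of the 6 libraries held 75.9% of the variance and separated the groups, from -36.4 to -33.8 in 14559TN and from 33.8 to 35.7 in 13TN. Cytosolic ribosomal protein genes took 1.63% to 1.72% of the counts in 14559TN and 1.75% to 1.77% in 13TN. Malat1, a nuclear RNA on chromosome 19, took 1.76% to 2.40% in 14559TN and 2.71% to 3.5% in 13TN, against 1.21% to 1.33% and 1.22% to 1.32% untreated, and its part in the results was not tested. The pigment-cell label had little support from some of its markers in both groups. Tyr, Dct and Tyrp1, enzymes of pigment synthesis, had no count in the 6 libraries. Sox10, a pigment-lineage factor, had 1 count in each group. Mitf, the master regulator of melanocytes, was present at 64.4 ± 3.42 CPM in 14559TN and 59.0 ± 6.03 CPM in 13TN (SD, n = 3 each; CPM is the count scaled to a common library size, as edgeR's cpm gives it with TMM factors). In a list of 18 pigment cell genes that includes Mitf, 13 had counts in the series, 3 were tested and none was called. The list summed to 310 to 357 CPM in 14559TN and 285 to 382 CPM in 13TN, so members not named here had counts. Ptprc, which encodes CD45, stood at 2.61 ± 1.98 CPM in 14559TN and 2.59 ± 1.51 CPM in 13TN.

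Of 13286 tested genes, 1069 (8.05%) were higher and 1033 (7.78%) lower in treated 14559TN than in treated 13TN, at a Benjamini-Hochberg adjusted p under 0.05 in edgeR's quasi-likelihood test. A difference of at least 1 on the log2 scale was also met by 614 of the higher genes (4.62% of those tested) and 432 of the lower genes (3.25%). Without drugs the same clones differed in 748 genes (5.63%) that were higher and 738 (5.55%) that were lower in 14559TN. Of the 1069 genes higher in treated 14559TN, 461 were also called higher untreated, 1 was called lower and 607 were not called. Of the 1033 lower genes, 373 were also called lower untreated, 1 was called higher and 659 were not called. The untreated libraries are other tumours than the treated ones, and 91.8% of the higher and 92.5% of the lower genes had the same sign there, while the log2 differences of 9234 genes with at least 5 CPM in each group had a Pearson r of 0.66 across genes. A test of the change between the treated and the untreated difference called 35 genes upward (0.263%) and 24 downward (0.181%). These counts were 84 and 70 with DESeq2 and 169 and 163 without the filter on low counts. The remaining TN clone, 2646TN, when treated, had mean levels nearer to 13TN for 735 of the 1069 higher and 674 of the 1033 lower genes.

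**Figure D1:**
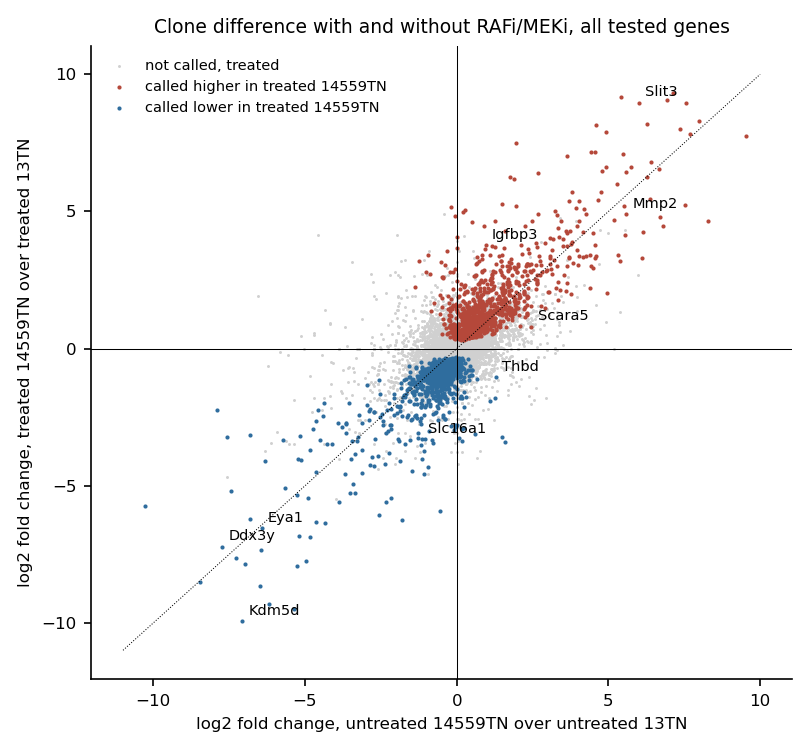
Each point is a tested gene, with the log2 fold change of untreated 14559TN over untreated 13TN on the x axis and of treated 14559TN over treated 13TN on the y axis. Red and blue points are the 1069 higher and 1033 lower genes of the treated comparison, grey points were not called, and the dotted line marks equal differences.

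Several genes were expressed in treated 14559TN and nearly or fully without counts in treated 13TN. Slit3 (ENSMUSG00000056427, GRCm38 chr11:35121224-35708507), a secreted guidance ligand, stood at 60.2, 60.0 and 44.3 CPM in the 14559TN tumours and at 0, 0 and 0.252 CPM in the 13TN tumours. All its counts but 1 were in 14559TN, a ratio of 710 with a 95% interval of 127 to 28030 that covers counting error only (log2 8.97 ± 0.65 SE, edgeR adjusted p = 4.34e-12). Tox, a nuclear factor best known from T cells, stood at 47.7, 56.0 and 72.8 CPM against 0.226, 0 and 0 CPM. Tbx20, a T-box factor of heart development, had 107 counts against 0, at least 38.7-fold higher when the group without counts is set at 3 counts. Efs, an adaptor of the Src kinase, was at least 40.9-fold higher by the same floor, with 113 counts against 0. Plxdc2, a transmembrane protein, stood at 109 ± 2.47 CPM against 0.504 ± 0.872 CPM, and Gprasp2, a sorting protein for receptors, at 58.2 ± 3.79 CPM against 0.385 ± 0.253 CPM. In each of these 6 genes every 14559TN tumour lay above every 13TN tumour, which the rule for naming the largest changes required. Of all tested genes, 2398 (18%) were apart in this way with 14559TN higher and 2220 (16.7%) with 14559TN lower. All 6 genes were also called higher in untreated 14559TN.

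Other genes with small p-values were abundant in 14559TN and low, not absent, in 13TN. Pmepa1, a target and restraint of TGF-beta signalling, stood at 104 ± 18.0 CPM against 1.19 ± 0.670 CPM (log2 6.43 ± 0.40). Dkk2, a secreted modulator of Wnt signalling, stood at 364, 361 and 382 CPM against 41.5, 52.9 and 42.0 CPM (log2 3.02 ± 0.19, edgeR adjusted p = 8.14e-14). Smarca1, a chromatin remodelling ATPase, stood at 80.4 ± 4.87 CPM against 4.10 ± 1.18 CPM. Gpnmb, a glycoprotein of melanosomes and lysosomes, stood at 97.4 ± 7.17 CPM against 8.72 ± 5.32 CPM. Crabp1, which binds retinoic acid inside cells, was higher by 2.67 ± 0.32 on the log2 scale and by 2.64 ± 0.32 untreated. The 4 genes named first were called higher untreated as well.

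In the opposite direction, some genes were abundant in 13TN and low or without counts in 14559TN. Eya1 (ENSMUSG00000025932, GRCm38 chr1:14168954-14310235), a transcriptional co-activator of organ development, stood at 3.41, 1.25 and 1.14 CPM in 14559TN and at 186, 175 and 172 CPM in 13TN (log2 -6.54 ± 0.32, edgeR adjusted p = 7.44e-15). The treated 13TN level of Eya1 was also above that of every other group, since treated 2646TN had a mean of 60.9 CPM and both 14559R groups had no count. Shox2, a homeobox factor of limb and heart, stood at 1.99, 0 and 0 CPM against 36.8, 39.5 and 24.2 CPM. Nfia, a factor of glial development, was present in both clones and lower in 14559TN, at 138 ± 17.2 CPM against 590 ± 44.2 CPM, a log2 difference of -2.10 ± 0.17 treated and -1.98 ± 0.18 untreated. Rspo3, a secreted enhancer of Wnt signalling, had 0 counts in 14559TN and 18.0, 33.6 and 7.30 CPM in 13TN, at least 78.9-fold lower in 14559TN by the floor of 3 counts. Adgrg2, an adhesion receptor, was at least 89.1-fold lower, with 0 counts against 290. Col25a1, Tmem121, Cacna1b, Scml2 and Parm1 also had no counts in treated 14559TN, and Spats2l and Map2 had 2 counts each.

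**Figure D2:**
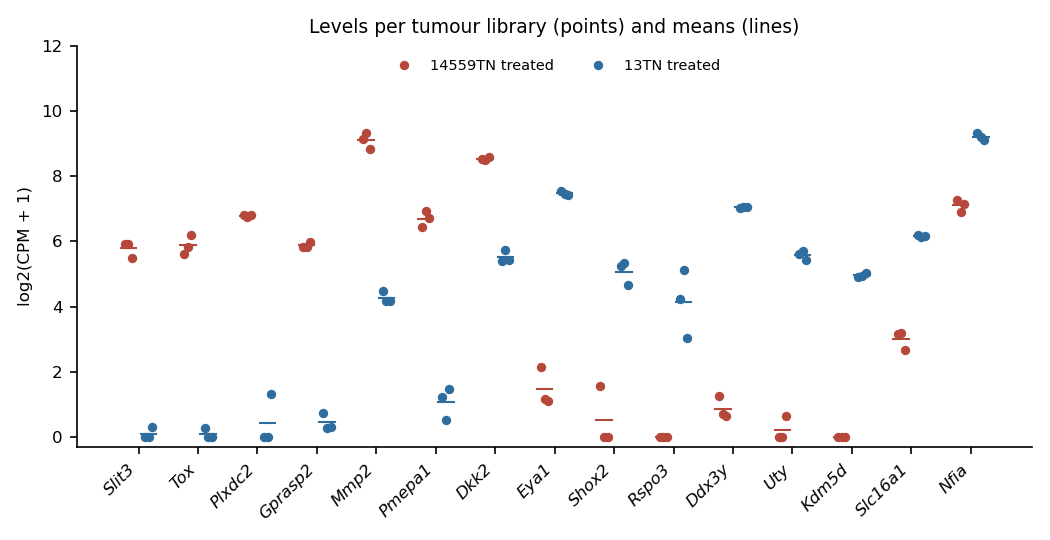
Points are the 3 treated 14559TN and 3 treated 13TN libraries and short lines their means, on the scale log2(CPM + 1), for 15 genes. Slit3, Tox, Plxdc2 and Gprasp2 lie near 0 in 13TN and Rspo3, Uty and Kdm5d near 0 in 14559TN. In all 15 genes the groups do not overlap, which the rule for naming the largest changes required of the genes it gave. Others, such as Dkk2, were named by rules without that condition.

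Kdm5d (GRCm38 chrY:897788-956786), a histone demethylase, had 0 counts in the 14559TN tumours and 29.3, 29.9 and 31.7 CPM in the 13TN tumours. That is at least 119-fold lower in 14559TN by the floor of 3 counts. Uty (chrY:1096861-1245759), a relative of the demethylase Kdm6a, had 2 counts against 604, a ratio of 278 in favour of 13TN (95% interval 77.0 to 2298, counting error only). Ddx3y (chrY:1260771-1286629), an RNA helicase, stood at 1.42, 0.627 and 0.571 CPM against 129, 132 and 133 CPM (log2 -7.22 ± 0.30, edgeR adjusted p = 1.45e-18). Ddx3y has a close copy on the X chromosome, Ddx3x, so its single counts are uncertain. The fourth tested Y gene, the model Gm47283, was not called (log2 -0.49, adjusted p = 0.162). The same 3 genes were near 0 in untreated 14559TN and in both 14559R groups, where Ddx3y means were 0.244 to 0.542 CPM, and were present in 2646TN and 2646R, where Ddx3y means were 98.8 to 158 CPM.

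Genes of chromosome 19 were lower in 14559TN as a block, a pattern found after the values were seen. Of 443 tested genes there, 183 (41.3%) were called lower and 8 higher in treated 14559TN, and 380 (85.8%) had a log2 difference below 0. The median was -0.57 treated and -0.59 untreated, which at the treated median puts 13TN 1.49 times above 14559TN. Medians of the other autosomes and X ran from -0.06 to 0.09 treated. All 6 windows of 10 Mb along chromosome 19 had treated medians between -0.75 and -0.35, while the other windows ran from -0.27 to 0.48. The block held 17.7% of all genes called lower, and outside it 850 genes (6.62% of those tested there) were lower. Against the mean of the 10 groups, the median chromosome 19 gene stood at -0.38 in treated and -0.30 in untreated 14559TN, at -0.26 and -0.31 in treated and untreated 14559R, and between 0.17 and 0.28 in the 6 groups of 13TN, 2646TN and 2646R. List members named below that lie on chromosome 19 are marked as such, while the counts of lists can include others that are not named.

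**Figure D3:**
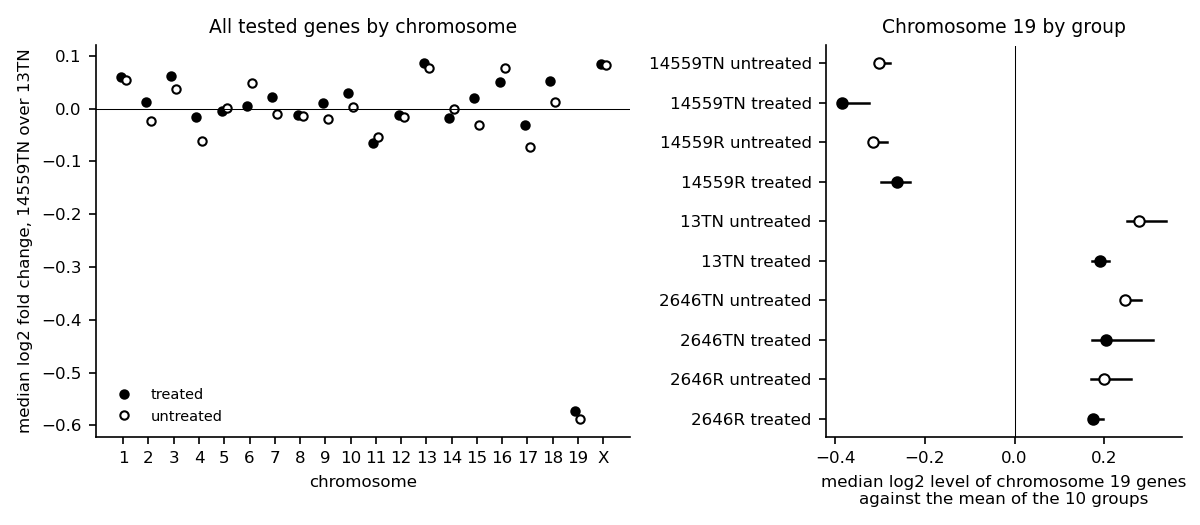
Left, the median log2 fold change of 14559TN over 13TN for the tested genes of each autosome and X, treated (filled) and untreated (open), where chromosome 19 lies at -0.57 treated and -0.59 untreated and the other treated medians between -0.06 and 0.09. Right, the median log2 level of 376 chromosome 19 genes against the mean of the 10 groups, as the median of the group means (circle) and the range of the medians of its 3 libraries (line), where the 4 groups of 14559TN and 14559R lie below 0 and the other 6 above.

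Genes read as ERK output were lower in treated 14559TN. Of 20 such genes 8 were lower and none was higher, with a median log2 of -1.02 against 0.00 over all tested genes. The share lower over all tested genes was 7.78%. Untreated, 6 of the 20 were lower and 3 higher, with a median of -0.33, and 1, Phlda1, was called in the test of the change between the treated and untreated difference. Phlda1 (GRCm38 chr10:111506286-111508645), induced by ERK in many cell types, stood at 231, 280 and 229 CPM in 14559TN and at 906, 1020 and 815 CPM in 13TN (log2 -1.89 ± 0.15, edgeR adjusted p = 6.98e-11). Dusp5, a nuclear phosphatase of ERK that lies on chromosome 19, stood at 2.84, 5.64 and 2.00 CPM against 27.3, 31.1 and 35.8 CPM, and was lower untreated too (log2 -2.32 ± 0.33). Spry4, a Sprouty brake of the pathway, stood at 19.3, 36.6 and 22.9 CPM against 80, 81.0 and 85.6 CPM. The groups did not overlap in these 3 genes, as was so, with 14559TN lower, in 16.7% of all tested genes. Etv5, an ETS factor under ERK, stood at 21.2 ± 6.06 CPM against 39.4 ± 3.67 CPM, and its call was lost without replicate 3 of treated 14559TN (edgeR adjusted p = 0.0542). Epha4, Epha2, Myc and Fosl1 completed the 8, of which Fosl1 lies on chromosome 19. Epha4 and Myc had under 3 CPM in each group.

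Other readouts of the pathway did not pass the test. Ccnd1, the cyclin that ERK sustains, stood at 768, 678 and 542 CPM in 14559TN and 743, 754 and 539 CPM in 13TN, an overlap with a log2 difference of -0.04 ± 0.18. Spry2 was not called either, at 143 ± 31.3 CPM against 124 ± 12 CPM. Dusp6, the phosphatase most often used to read the pathway, stood at 31.8, 127 and 101 CPM against 198, 249 and 105 CPM and did not pass the test (log2 -1.08 ± 0.44, edgeR adjusted p = 0.102). Without the filter on low counts Dusp6 did pass (edgeR adjusted p = 8.60e-10), as did 13 of the 20 genes, so the count of this list moves with that filter. The Dusp6 libraries of the groups overlap, and that fit takes in every gene with a count, so no call of Dusp6 is drawn from it. Etv4 stood at 9.18 ± 4.00 CPM against 19.1 ± 5.49 CPM, with an adjusted p of 0.0606. Among 17 kinases, adaptors and regulators of the pathway itself, 5 were lower and none was higher, among them Map2k1, Rasa2 and the chromosome 19 gene Shoc2. Map2k1, which encodes MEK1, stood at 19.4 ± 4.97 CPM against 32.2 ± 3.71 CPM, but leaving out single libraries kept only 2 or 3 of the 5 calls. Braf was not called, at 114 ± 13.1 CPM against 95.5 ± 6.69 CPM.

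Few genes of cell division were called between the treated groups. Of 25 mitosis genes 1, Cenpf, was higher, and of 26 DNA replication genes 1, Ccne2, was lower. Over all tested genes 8.05% were higher and 7.78% lower. Untreated, 7 of the mitosis and 4 of the replication genes were lower and none was higher. The median log2 was 0.26 treated and -0.35 untreated for mitosis, and 0.01 and -0.39 for replication. No gene of either list was called in the test of the change between the treated and untreated difference. Mki67, a marker of cycling cells, stood at 7.67, 6.27 and 7.43 CPM in 14559TN and 3.16, 4.31 and 5.29 CPM in 13TN, and did not pass the test (log2 0.74 ± 0.38, edgeR adjusted p = 0.208). Untreated, Mki67 stood at 70.2 ± 9.93 CPM and 80.8 ± 10.9 CPM, so both treated clones were at low levels. The calls of Cenpf and Ccne2 were lost when single libraries were left out, with adjusted p up to 0.1 for Cenpf and 0.173 for Ccne2. Genes that hold cells at rest gave 3 higher and 1 lower of 14 tested. Gas1, a surface protein of growth arrest, stood at 895, 1088 and 1264 CPM against 526, 429 and 410 CPM. Foxo1, a factor restrained by growth factor signals, was lower, at 41.9 ± 2.56 CPM against 132 ± 11 CPM.

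Heat shock chaperones were the list with the largest share of called members among those shown in the plot of lists. Of 12 tested genes 9 were lower and 1, Cryab, was higher in treated 14559TN, with a median log2 of -0.88. Over all tested genes 7.78% were lower and 8.05% higher. These genes are switched on by the heat shock factor Hsf1, which binds repeats of the unit nGAAn in alternating orientation. The promoter stretches of 3 members are shown because they carry that pattern in the RefSeq windows of GRCm38.p6, which run from 250 bases before to 50 after a start site. Capitals mark GAANNTTCNNGAA or TTCNNGAANNTTC in Hspe1 and Hsph1, and the shorter GAANNTTC in Hspa1a. Each line reads 5′ to 3′ on the strand of the gene.
Hspe1 (chr1:55087998-55088147, plus strand): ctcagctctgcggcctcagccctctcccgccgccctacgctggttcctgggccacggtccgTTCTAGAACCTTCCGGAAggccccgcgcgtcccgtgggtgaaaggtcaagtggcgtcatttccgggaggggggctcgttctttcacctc
Hsph1 (chr5:149636287-149636316, minus strand): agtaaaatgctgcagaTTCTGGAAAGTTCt
Hspa1a (chr17:34972157-34972306, minus strand): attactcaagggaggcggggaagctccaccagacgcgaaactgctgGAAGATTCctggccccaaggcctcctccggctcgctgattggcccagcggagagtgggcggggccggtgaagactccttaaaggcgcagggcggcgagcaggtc
The match begins 89 bases before the start site in Hspe1, 104 before it in Hspa1a and 36 after it in Hsph1. In Hspe1 a pair of matches overlap. Windows were found for 10 list members. The longer pattern, searched on both strands, was in 3 of them and in 0.603% of all 32851 windows. The shorter pattern, GAANNTTC or TTCNNGAA, which the longer one contains, was in 9 of the 10 and in 15.1% of all windows. Hspd1 and Hspe1 start close together on opposite strands and share the stretch with the longer pattern, and some members have several windows, so the counts of members and the shares of windows are not on the same footing. A match is a string of letters and not a measured site.

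Hsp90aa1, the inducible cytosolic Hsp90, stood at 119, 151 and 134 CPM in 14559TN and at 387, 354 and 459 CPM in 13TN (log2 -1.57 ± 0.21, edgeR adjusted p = 2.84e-06). Hspa1a, an inducible Hsp70, stood at 17.9, 62.0 and 29.7 CPM against 144, 207 and 289 CPM (log2 -2.52 ± 0.45). Its near-identical neighbour Hspa1b stood at 54.2 ± 45.7 CPM against 319 ± 107 CPM, and reads can be split between the copies. Dnajb1, the Hsp40 that feeds Hsp70, stood at 54.0, 66.4 and 44.8 CPM against 118, 150 and 284 CPM. The mitochondrial pair Hspe1 and Hspd1 differed less, by -0.98 ± 0.17 and -0.67 ± 0.16 on the log2 scale. Hsph1, a nucleotide exchange factor of Hsp70, stood at 48.3, 57.9 and 40.8 CPM against 71.0, 72.1 and 151 CPM, and its call was lost without replicate 3 of treated 13TN (log2 -0.54, edgeR adjusted p = 0.0624). Cryab, a small heat shock protein, went the other way at 58.9 ± 4.27 CPM against 20.6 ± 1.57 CPM. Cryab, Hspd1, Egr1, Epha4 and Fads2 were named after their values were seen. Untreated, 1 of the 12 genes was called lower, and none was called in the test of the change between the treated and untreated difference.

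Several of these genes belong to a list known to rise when tissue is dissociated for sorting. Of its 17 genes, which include Hspa1a, Hspa1b, Dnajb1 and Hsph1, 8 were lower and none was higher, against 7.78% lower over all tested genes. Their summed level ran from 880 to 2040 CPM in treated 14559TN and from 2043 to 3550 CPM in treated 13TN, with the lowest 13TN library next to the highest 14559TN library. Untreated, the sums were 1084 to 1232 CPM and 1652 to 2347 CPM. Without replicate 3 of treated 13TN 5 of the 17 were called. The part of dissociation in the heat shock result was not tested. The AP-1 and immediate-early genes, which respond within minutes to ERK and to stress, gave 5 lower of 16 and none higher. Egr3 stood at 9.37, 20.5 and 12 CPM against 81.6, 85.3 and 50.9 CPM (log2 -2.35 ± 0.43, edgeR adjusted p = 0.000429). Atf3 stood at 3.52 ± 2.06 CPM against 24.8 ± 12.5 CPM and Jun at 414 ± 134 CPM against 752 ± 64.5 CPM. Egr1 overlapped between the groups and did not pass (log2 -1.04 ± 0.36, edgeR adjusted p = 0.0526). Replicate 2 of treated 14559TN had the highest level of its group in Hspa1a, Hspa1b, Egr1, Egr3 and Jun. Without it 8 of the 16 genes were called, and without replicate 3 of treated 13TN or replicate 1 of treated 14559TN 3 were.

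Matrix genes of connective tissue were higher in treated 14559TN. Of 26 matrix proteases and their inhibitors 11 were higher and 3 lower, and of 15 elastic fibre and microfibril genes 7 were higher and none lower. Of 25 collagens 7 were higher and 1 lower, and of 8 small leucine-rich proteoglycans 5 were higher and none lower. Over all tested genes 8.05% were higher and 7.78% lower. Untreated, 8, 4, 8 and 4 genes of these lists were called higher in the same order, against 5.63% over all tested genes. None of the lists had a gene called upward in the test of the change, and 1 matrix protease or inhibitor gene was called downward. Mmp2 (ENSMUSG00000031740, GRCm38 chr8:92827291-92853420), a gelatinase, stood at 567, 638 and 456 CPM in 14559TN and 21.4, 17.2 and 16.9 CPM in 13TN (log2 4.90 ± 0.30, edgeR adjusted p = 1.55e-11). Both 14559R groups were also high in Mmp2, at 489 ± 189 CPM untreated and 588 ± 117 CPM treated, and 2646TN was at 43.3 ± 4.20 and 61.5 ± 21.2 CPM. Adamts5, which cuts aggrecan and versican, stood at 163, 155 and 154 CPM against 20.5, 19.1 and 17.4 CPM. The inhibitors of metalloproteinases split: Timp2 was higher, at 6672 ± 675 CPM against 4005 ± 397 CPM, while Timp1 was lower, at 103 ± 18.5 CPM against 202 ± 62.6 CPM. Fbln5, which organises elastic fibres, stood at 142, 164 and 138 CPM against 10.6, 7.49 and 5.29 CPM. Ltbp4, which holds latent TGF-beta in microfibrils, was higher by 2.01 ± 0.17 on the log2 scale, and Lox, the enzyme that crosslinks collagen and elastin, by 3.77 ± 0.55.

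The proteoglycans Ogn, Aspn and Dcn bind collagen and shape its fibrils. Ogn stood at 102, 132 and 151 CPM in 14559TN and 19.6, 7.03 and 21.4 CPM in 13TN, and Aspn at 129, 212 and 131 CPM against 7.67, 8.17 and 5.54 CPM. Dcn stood at 525 ± 204 CPM against 187 ± 57.9 CPM. Postn, a matricellular protein of wounds and tumour stroma, stood at 425, 661 and 556 CPM against 44.4, 32.9 and 26.2 CPM (log2 3.98 ± 0.61, edgeR adjusted p = 8.10e-05). Col14a1 stood at 42.1 ± 7.44 CPM against 1.31 ± 1.23 CPM, and untreated both clones had under 1 CPM. Col12a1, its relative, stood at 150 ± 31.5 CPM against 21.0 ± 8.75 CPM. In the basement membrane list 5 of 18 were higher and 2 lower, or 1 lower without replicate 1 or 3 of either group. Lama4, a laminin chain of vessels and mesenchyme, stood at 305, 308 and 282 CPM against 21.2, 13.4 and 18.6 CPM. Lamb1 was higher by 0.87 ± 0.10 on the log2 scale.

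Fibroblast markers were higher together with these matrix genes. Of 12 fibroblast markers, which include Postn, Col14a1 and Dcn described above, 7 were higher and none lower, against 8.05% higher over all tested genes. Their summed level was 10589 to 16940 CPM in treated 14559TN and 8234 to 9314 CPM in treated 13TN. Untreated, it was 8923 to 9776 CPM and 3820 to 4660 CPM. Col1a2, which is also in the collagen list, made up much of the treated sums. Its treated levels were 4590, 8328 and 6714 CPM in 14559TN and 3632, 4260 and 3142 CPM in 13TN. Of 5 tested pericyte and smooth muscle markers 1, Acta2, was higher. The summed level of that list was 180 to 266 CPM against 63.2 to 123 CPM. Acta2, smooth muscle actin on chromosome 19, stood at 176, 124 and 99.7 CPM against 63.6, 44.5 and 10.8 CPM and made up much of that sum. The call of Acta2 was lost without replicate 3 of treated 13TN (adjusted p = 0.0543) and without replicate 1 of treated 14559TN (adjusted p = 0.062). Pdgfrb, a pericyte receptor that is not in that list, was not called, at 155 ± 33.2 CPM against 205 ± 7.18 CPM. Summed endothelial markers ran the other way, at 134 to 193 CPM in treated 14559TN and 229 to 278 CPM in treated 13TN. Of the 8 tested 1 was called lower, but 4 had a log2 above 0 and the median log2 was 0.21. Summed macrophage markers stood at 281 to 438 CPM against 448 to 501 CPM, with 1 of 14 called higher and 1 lower. Of these 14, however, 10 had a log2 above 0, with a median of 0.47, so the lower sum does not stand for most members. Fewer cells of a type and less RNA per cell cannot be told apart in such libraries, and the part of other cells in the result was not tested. Without replicate 2 of treated 14559TN 3 proteoglycans were called, and without replicate 1 of treated 13TN or replicate 3 of treated 14559TN 4 collagens were higher, and the 1 lower collagen became 0 or 2 as single libraries were left out.

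**Figure D4:**
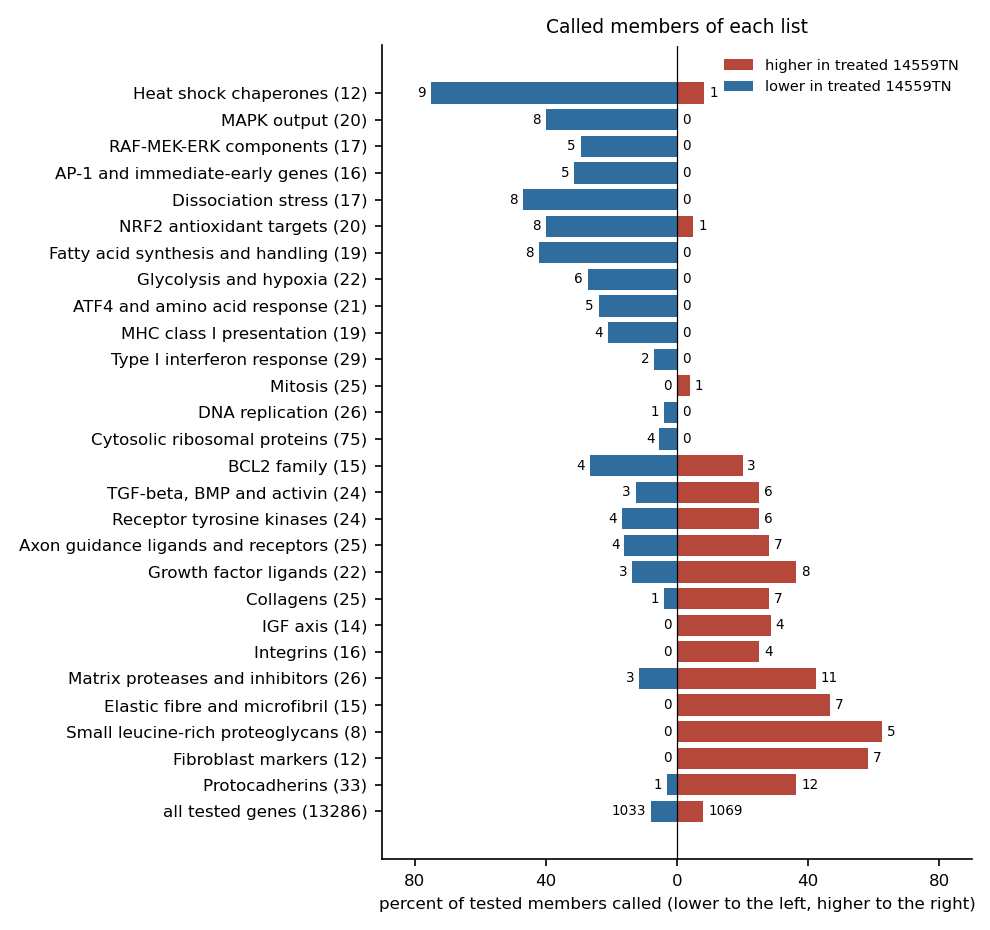
Bars give the percent of tested members of each list (number tested in brackets) that were lower (left, blue) or higher (right, red) in treated 14559TN, with the count beside each bar. The last row gives all tested genes, 1033 lower and 1069 higher, and the heat shock list has 9 of 12 members lower.

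Secreted growth factors and their receptors differed in both directions. Of 22 growth factor ligands 8 were higher and 3 lower in treated 14559TN, against 8.05% and 7.78% over all tested genes. Only 5 were higher without replicate 1 and 4 without replicate 3 of treated 13TN. Igf1, insulin-like growth factor 1, stood at 54.2, 66.0 and 46.3 CPM in 14559TN and 5.86, 2.72 and 3.02 CPM in 13TN (log2 3.83 ± 0.51, edgeR adjusted p = 4.35e-06). Fgf7, a factor for epithelial cells, stood at 25.2 ± 9.13 CPM against 3.87 ± 2.18 CPM, and Pdgfc at 41.2 ± 5.03 CPM against 11.6 ± 5.35 CPM. Hbegf, a ligand of Egfr that ERK induces, was lower at 16.8, 14.8 and 14.8 CPM against 37.0, 48.3 and 57.4 CPM. Pdgfa was lower too, at 49.1 ± 6.62 CPM against 78.0 ± 6.59 CPM. Of 24 receptor tyrosine kinases 6 were higher and 4 lower, beside the same 8.05% and 7.78%. Pdgfra, the receptor for both Pdgfa and Pdgfc, stood at 298, 459 and 340 CPM against 149, 172 and 146 CPM. Met, the receptor for hepatocyte growth factor, stood at 12.5 ± 2.12 CPM against 2.93 ± 1.98 CPM, and the ephrin receptors Epha3 and Epha7 were higher by 3.10 ± 0.54 and 2.67 ± 0.43 on the log2 scale. Flt1, a receptor for Vegfa, was lower, at 13.1 ± 1.55 CPM against 63.0 ± 14.4 CPM. Axl, a receptor often raised in drug-tolerant melanoma cells, overlapped, at 1061, 763 and 811 CPM against 855, 836 and 923 CPM.

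In the insulin-like growth factor axis 4 of 14 genes were higher and none lower: Igfbp3, Igf1, Stc2 and Irs2. Stc2, an inhibitor of the protease that frees Igf1, had 28 counts against 0, at least 10.1-fold higher by the floor of 3 counts. In the TGF-beta, BMP and activin list 6 of 24 were higher and 3 lower, against 8.05% and 7.78% over all tested genes. Bmp4 stood at 21.9, 24.2 and 15.4 CPM against 0.676, 0.454 and 2.01 CPM (log2 4.30 ± 0.51, edgeR adjusted p = 4.55e-07). Grem1, an extracellular inhibitor that binds Bmp4, stood at 127, 230 and 174 CPM against 13.1, 23.6 and 15.6 CPM. Inhba, the subunit of activin A, stood at 119 ± 8.08 CPM against 28.7 ± 5.06 CPM. Id1, the usual readout of BMP signalling, was lower at 3.12, 9.40 and 8.28 CPM against 31.6, 71.0 and 26.9 CPM (log2 -2.61 ± 0.38, edgeR adjusted p = 8.64e-06). So both the ligand Bmp4 and its inhibitor Grem1 were higher, and the target Id1 was lower, in treated 14559TN. Smad7, the inhibitory Smad, and Smad3 were the other two lower genes. Of 20 Wnt genes 4 were higher, Dkk2, Fzd2, Lef1 and Axin2, and 2 lower, Notum and the chromosome 19 gene Tcf7l2, and the lower count was 0 or 1 when any single library was left out.

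Genes of cell contact and guidance were called in both directions. Of 25 axon guidance genes 7 were higher and 4 lower, against 8.05% and 7.78% over all tested genes. Sema3d, a secreted semaphorin, stood at 84.6, 60.4 and 66.5 CPM in 14559TN and 2.03, 3.86 and 1.01 CPM in 13TN. Sema3c was higher by 2.65 ± 0.39 on the log2 scale, and Robo2, a receptor for Slit proteins, by 2.95 ± 0.45. Unc5b, a netrin receptor, was lower at 84.9, 146 and 116 CPM against 419, 421 and 238 CPM. Of 33 protocadherins 12 were higher and 1 lower, with a median log2 of 0.98. Pcdhga3 stood at 77.5, 79.0 and 89.4 CPM against 8.12, 1.36 and 6.04 CPM, but genes of its cluster share their last exons, so reads near the 3′ end can be assigned to any of them and the values are uncertain. Pcdh17, a gene outside those clusters, stood at 106 ± 8.96 CPM against 14.4 ± 9.53 CPM. Cdh2, N-cadherin, stood at 26.7, 30.7 and 34.6 CPM against 4.06, 3.63 and 2.27 CPM, and Cdh13 at 329 ± 40.5 CPM against 107 ± 19.8 CPM. Ncam1, a neural adhesion molecule, was lower, at 539 ± 35.2 CPM against 863 ± 149 CPM. Of 21 mesenchymal genes 6 were higher and 1 lower, with Prrx1, a mesenchymal homeobox factor, at 1657 ± 116 CPM against 806 ± 97.4 CPM. Of 11 tested neural crest and glial genes 5 were higher and none lower, among them Nes, nestin, at 223 ± 24.6 CPM against 112 ± 45.5 CPM.

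Called metabolic genes of the lists below were lower in treated 14559TN, with 1 exception among the antioxidant genes. Of 22 glycolysis and hypoxia genes 6 were lower and none higher, and 15 were lower untreated. Over all tested genes 7.78% were lower treated and 5.55% untreated. Hk2, the first enzyme of glycolysis, stood at 37.8, 57.7 and 43.4 CPM in 14559TN and 200, 168 and 219 CPM in 13TN (log2 -2.07 ± 0.23, edgeR adjusted p = 2.31e-07). Pfkp, an isoform of phosphofructokinase, stood at 28.8 ± 1.89 CPM against 92.1 ± 22.7 CPM, and Ldha, lactate dehydrogenase, at 41.1 ± 7.71 CPM against 102 ± 6.2 CPM. Slc16a1 (GRCm38 chr3:104638668-104658462), which encodes the lactate carrier MCT1, stood at 7.95, 8.15 and 5.43 CPM against 73.1, 69.4 and 71.5 CPM (log2 -3.30 ± 0.20, edgeR adjusted p = 7.46e-14). The other 9 groups had mean Slc16a1 levels of 33.4 to 83.9 CPM, so treated 14559TN was the lowest group of the series. Egln3, a hypoxia-induced prolyl hydroxylase, stood at 28.1 ± 7.65 CPM against 65.8 ± 6.82 CPM.

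Of 19 genes of fatty acid synthesis and handling 8 were lower and none higher, against 1 lower and 1 higher untreated. Over all tested genes 7.78% were lower and 8.05% higher treated, here and for the lists that follow. Fads1, Fads2 and Scd2, desaturases of fatty acids, lie on chromosome 19. Scd2 stood at 162 ± 21.2 CPM against 291 ± 28.2 CPM, a log2 difference of -0.84 ± 0.17 treated, and was called lower untreated as well. Fads2 had 0 counts against 24, at least 7.37-fold lower by the floor of 3 counts. Srebf1, the main activator of lipid synthesis genes, lies on chromosome 11 and stood at 2.84, 6.48 and 6.00 CPM against 16.7, 19.1 and 15.4 CPM. Of 20 antioxidant genes under Nrf2 8 were lower, among them the chromosome 19 gene Gstp1, and 1 higher. G6pdx, which supplies NADPH, stood at 17 ± 2.48 CPM against 38.6 ± 7.81 CPM and Gclc, which starts glutathione synthesis, at 18.3 ± 3.23 CPM against 40.5 ± 14 CPM. Leaving out any single one of the 6 libraries left 3 to 5 lower and 0 to 2 higher genes of this list. Of 21 genes of the Atf4 amino acid response 5 were lower, and 3 of these, Psat1, Slc3a2 and Aldh18a1, lie on chromosome 19. Only 3 of the 5 were called without replicate 2 of treated 13TN or without replicate 1 or 3 of treated 14559TN.

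Type I interferon genes were called less often treated than untreated. Of 29 such genes 2 were lower and none higher treated, a share near the 7.78% lower over all tested genes. Untreated, 12 were lower, against 5.55% over all tested genes. No gene of the list was called in the test of the change between the treated and untreated difference. The treated counts were 9 lower and 1 higher without the filter on low counts, and 6 lower and 1 higher with the 6 compared libraries alone. Oas2, an antiviral enzyme, stood at 5.11, 4.60 and 5.43 CPM in 14559TN and 22.6, 46.5 and 14.9 CPM in 13TN, and Rsad2, another antiviral enzyme, at 5.86 ± 1.30 CPM against 23.6 ± 9.33 CPM. The 13TN tumours were far apart among themselves in such genes. Tap2, a peptide transporter for MHC class I, stood at 1.99, 5.64 and 8.85 CPM against 60.0, 42.9 and 10.3 CPM, with replicate 3 the lowest of 13TN. Of 19 MHC class I genes 4 were lower, Psme1, H2-T22, Tap2 and Psmb9, and none was higher, against 7.78% lower over all tested genes. The median log2 of this list was -0.74, with 1 of 19 genes above 0. Its lower count was 13 without the filter on low counts and 7 with the 6 compared libraries alone. That count ran from 2 to 8 as single libraries were left out. It was 8 without replicate 3 of treated 13TN and 2 without replicate 1 of either group. Tap2 itself was not called without replicate 1 of treated 13TN (edgeR adjusted p = 0.0677) or of treated 14559TN (edgeR adjusted p = 0.0724). Psme1, an activator of the proteasome, stood at 232 ± 24.7 CPM against 382 ± 94.9 CPM. B2m, the invariant chain of MHC class I, and the chromosome 19 gene Cd274, which encodes PD-L1, were not called.

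Among 15 genes of the Bcl2 family, which sets the threshold for cell death, 3 were higher and 4 lower. The shares over all tested genes were 8.05% and 7.78%. Bcl2, a guardian against cell death, stood at 244, 215 and 234 CPM in 14559TN and at 83.4, 86.7 and 84.3 CPM in 13TN (log2 1.45 ± 0.18, edgeR adjusted p = 4.86e-07). The other treated groups had mean Bcl2 levels of 55.2 to 68.0 CPM, and the untreated difference between the clones was 1.31 ± 0.20 on the log2 scale. The other higher genes were Bmf, at 16.6 ± 0.924 CPM against 5.07 ± 2.49 CPM, and Bnip3l, at 103 ± 6.27 CPM against 77.3 ± 6.29 CPM. Bak1, an executioner of the family, was lower, at 17.9, 17.8 and 16 CPM against 38.6, 36.1 and 33.2 CPM. The other lower genes were Bcl2l1, Mcl1 and the chromosome 19 gene Bad, and 1 to 3 of the 4 were called when single libraries were left out. Tert, the catalytic subunit of telomerase, had 34 counts in treated 14559TN and 0 in treated 13TN, at least 12.3-fold higher by the floor of 3 counts, and was also without counts in untreated 13TN. Of 18 p53 targets 1 was lower, and of 13 tested Hox genes none was called at this threshold.

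A treated difference can hold a difference that was there without the drugs, and the test of the change between the treated and untreated difference addresses this for single genes. It left 584 higher and 649 lower genes that were called treated but neither untreated nor in that test. Of the 1069 higher genes 31 were called in that test, and of the 1033 lower genes 13 were. Igfbp3 (GRCm38 chr11:7206086-7213923), which binds insulin-like growth factors, stood at 98.8, 130 and 132 CPM in treated 14559TN and 7.22, 10.9 and 8.31 CPM in treated 13TN. Untreated, it stood at 217 ± 15.8 CPM and 112 ± 17.6 CPM, so it fell by 0.85 on the log2 scale with treatment in 14559TN and by 3.66 in 13TN. That change was 2.81 ± 0.36 (edgeR adjusted p = 0.000181). Grem1 fell by 0.98 and 3.64 in the same order, from 349 ± 30.8 and 219 ± 96.2 CPM untreated, with a change of 2.67 ± 0.39 (edgeR adjusted p = 0.00173). Angptl2, a secreted glycoprotein, was not called without drugs, at 516 ± 23.1 and 501 ± 117 CPM, and stood at 194, 256 and 204 CPM against 102, 78.9 and 88.4 CPM with them. Adamtsl5, a matrix protein, and Cdh2 also differed more with treatment, with changes of 2.04 ± 0.38 and 1.73 ± 0.36.

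In the other direction Slc16a1 fell by 2.38 on the log2 scale with treatment in 14559TN (edgeR adjusted p = 1.90e-10), while in 13TN its difference of -0.23 was not called. Phlda1 did the converse: it rose by 1.28 with treatment in 13TN, and was not called in 14559TN, at 238 ± 23 CPM untreated and 247 ± 28.9 CPM treated. Treated 13TN had the highest mean of the 10 groups, with 14559R next at 801 ± 152 CPM treated, and those 2 groups overlap. Per3, a period gene of the circadian clock, was 47.1 ± 11.2 and 42.5 ± 7.51 CPM untreated, and stood at 21.9, 27.8 and 27.7 CPM against 88.6, 76.7 and 88.9 CPM treated. Por, the electron donor of cytochromes P450, and Wdfy2, an endosomal protein, had changes of -0.98 ± 0.19 and -1.21 ± 0.26. Csrp1, a LIM protein of smooth muscle, rose in both clones and more in 13TN, by 0.87 and 2.03. Scara5, a ferritin receptor, rose by 1.66 in 14559TN and by 3.33 in 13TN, so that its lead in 14559TN went from 2.46 ± 0.21 untreated to 0.80 ± 0.19 treated. Thbd, thrombomodulin, reversed: it was higher in 14559TN untreated, at 171 ± 10.3 against 69.5 ± 5.21 CPM, and lower treated, at 61.3, 108 and 47.7 CPM against 140, 111 and 196 CPM. The treated call of Thbd was lost without replicate 1 or 3 of either clone, with adjusted p between 0.0508 and 0.142.

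**Figure D5:**
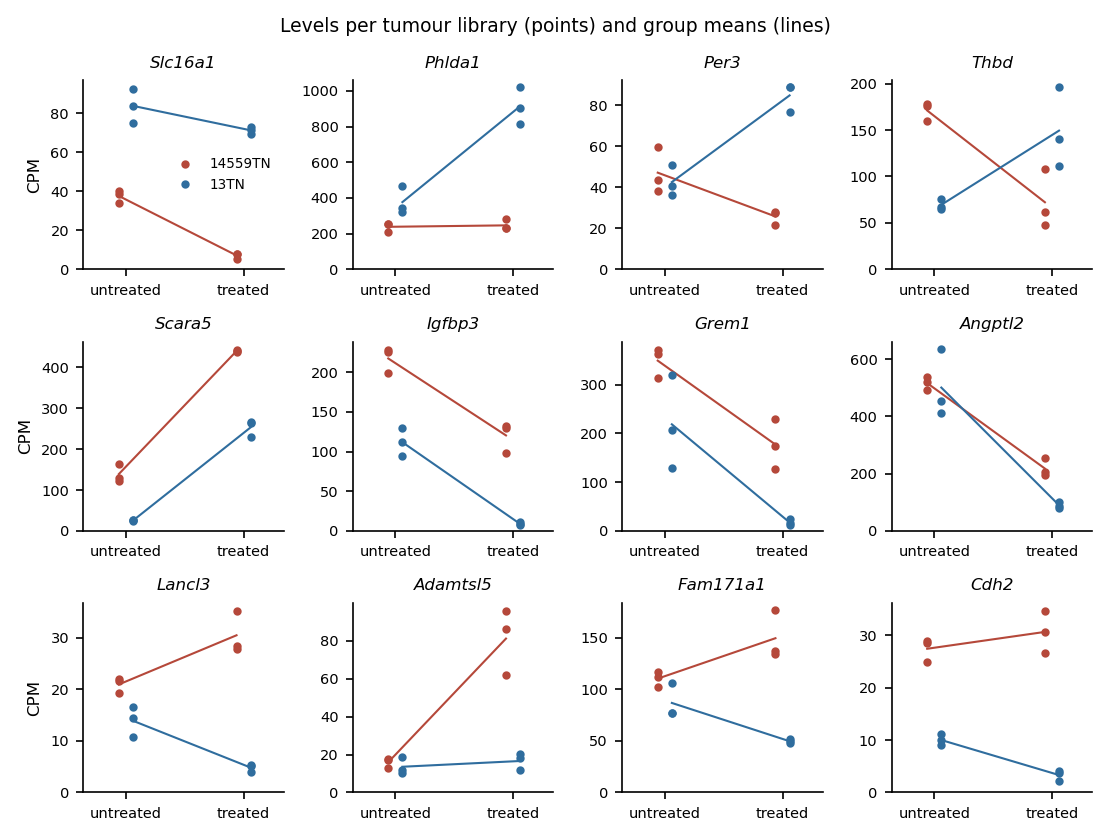
Points are tumour libraries and lines join the group means, in CPM, for 12 genes called in the test of the change between the treated and untreated difference, with 14559TN in red and 13TN in blue. The lines cross or part most in Thbd, Per3, Phlda1 and Adamtsl5, and Igfbp3 and Grem1 stay higher in 14559TN.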

How the data were processed

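RNA of sorted tumour cells was sequenced with a 3′ tag kit in 30 libraries. The deposited values are raw counts per gene, made by the authors with STAR 2.6.0c, featureCounts 1.6.2 and GRCm38, per the submitters' processing notes. Groups came from the sample titles. The members and lists were chosen with earlier results of these data known. Counts of all 10 groups were fitted together in edgeR 4.0.16 (R 4.3.3, limma 3.58.1) with TMM scaling, filterByExpr at a minimum count of 10, which kept 13286 genes, and the robust quasi-likelihood test with Benjamini-Hochberg adjustment over all of them. The fit had 20 residual degrees of freedom and a biological coefficient of variation of 18.2%. Contrasts were treated, untreated, the change between them and each clone's response to treatment. A standard error is the absolute log2 change over the square root of F, and SDs are over 3 libraries. Nothing in the labels says that tumours came from separate animals, so p-values measure the spread between these samples. Counting intervals are 95% Poisson intervals and the floor is 3 counts over a group. Reads carry no molecular identifiers that were used here, so both cover counting error only.

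Genes were named by rule. Per direction the 14 largest changes were taken among called genes with at least 5 CPM whose groups did not overlap. The 8 smallest p-values among called genes with at least 20 CPM followed. Each of 61 lists and 10 families gave up to 4 called members (6 where over 10 were called) and, with a called member, its most abundant one. A panel of 24 genes was added. The test of the change gave the 8 smallest p-values per direction among its called genes that were also called treated, with at least 5 CPM in a group. These rules gave 301 genes, and genes outside them are said to be so or are listed without values as called members. The alternatives were median-of-ratios size factors, no filter on low counts, DESeq2 1.42.0, the 6 compared libraries alone, a minimum log2 change of 1 and each library left out. The chromosome, window, Y and promoter summaries, and the count without chromosome 19 genes, were chosen after seeing the data. The fit was tested on simulated data. Some genes are not reported here.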

Additional observations from a re-analysis of the deposited data

Results flagged for a closer look

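In 18 named genes the treated difference between 14559TN and 13TN departed from the untreated one, by edgeR's quasi-likelihood test of the change on the log2 scale. That test called 59 genes in all, and its naming rule took only genes that were also called treated. The change was upward in Igfbp3 (2.81), Grem1 (2.67), Lancl3 (2.05), Adamtsl5 (2.04), Cdh2 (1.73), Rftn2 (1.35), Ankrd44 (1.28), Angptl2 (1.24), Fam171a1 (1.24) and Alcam (1.02). It was downward in Thbd (-2.33), Slc16a1 (-2.14), Per3 (-1.85), Scara5 (-1.67), Phlda1 (-1.23), Wdfy2 (-1.21), Csrp1 (-1.17) and Por (-0.98). Alcam, an adhesion molecule, and Thbd were called in opposite directions treated and untreated. Alcam was higher in treated 14559TN by 0.55 on the log2 scale and lower untreated, at -0.47. That untreated call lay barely under the threshold (edgeR adjusted p = 0.04996).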

How the results depend on the processing

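The treated counts of 1069 higher and 1033 lower genes ran from 783 to 865 and from 722 to 909 as single libraries were left out, and a minimum log2 change of 1 left 614 and 432. The chromosome 19 count of 183 lower genes ran from 143 to 155, and 850 lower genes remained without that chromosome. The counts of 35 and 24 genes in the test of the change were 84 and 70 with DESeq2 and 169 and 163 without the filter on low counts, and ran from 19 to 36 and from 16 to 28 as libraries were left out. ERK output had 13 lower genes without that filter. Type I interferon had 9 lower genes without it and 6 with the 6 compared libraries alone. Higher growth factor ligands ran from 4 to 8. Of 138 genes of the text that were followed singly 125 were called, and 111 kept their call under the 10 alternatives other than the minimum log2 change, 14 lost it under at least 1 of these, and 0 reversed. B2m, Dusp6, Egr1 and Etv4 gained a call under at least 1. No paired analysis was possible because the labels give the groups no shared replicate numbers. At 3349738 to 4620473 counts a library, genes under a few CPM rest on few counts, and 3 tumours of 1 clone a group limit what the spread covers.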
